A study of Sus scrofa with 9 samples.

Results

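The genes described here are 8 proteoglycans of the extracellular matrix: BGN, DCN, ASPN, LUM, FMOD, PRELP, OGN and VCAN. They were taken by gene symbol from a table of 30477 pig genes, where all 8 were present with 1 row each, and all 8 were among the 17884 genes that passed a filter on low values. Small leucine-rich proteoglycans are secreted core proteins, most of them carrying glycosaminoglycan chains, that bind collagen fibrils and set how thick and how evenly spaced the fibrils grow, and several also hold growth factors such as TGF-beta in the matrix. They are sorted by sequence into classes, with decorin (DCN), biglycan (BGN) and asporin (ASPN) in class I, lumican (LUM), fibromodulin (FMOD) and PRELP in class II and osteoglycin (OGN) in class III. Versican (VCAN) is of another kind, a large chondroitin sulfate proteoglycan that binds hyaluronan and fills the loose, hydrated matrix in which smooth muscle cells and fibroblasts of the vessel wall migrate and divide.

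The data were RNA-seq profiles of outflow veins of arteriovenous fistulas, the vein segments that carry arterial blood after an artery and a vein are joined for dialysis. In the MSC group (6 libraries), adipose-derived mesenchymal stem cells in Ringer lactate were laid on the outer wall of the vein as soon as the fistula had been made, and the control group (3 libraries) was left untreated. Pigs of both groups had a chronic kidney disease model, the fistula joined the carotid artery and jugular vein 28 days after induction of the disease, and veins were harvested 28 days after that. The comparison asks how cell treatment alters gene expression in the fistula vein. The labels give no age, strain or number of cells, and they do not say whether the libraries came from different animals. A p-value here weighs a difference against variation among 9 libraries, some of which may be technical. The name of MSC 1 carries the tags Allo and M, and that of control 2 the tags NT and F, which the labels do not explain.

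The libraries held 16939157 to 47417606 reads assigned to genes. MSC 6 and control 2 had unusual shares of small non-coding RNA, at 53.3% and 40.4% of assigned reads, where the remaining 7 libraries had 6.75% to 16.4%. MSC 2 had reads on 94.5% of genes, against 71.7% to 84.2% in the others. MSC 2, MSC 5 and MSC 6 were run in lane 7, which held no control. Reads on the Y-linked genes EIF1AY and KDM5D numbered 571 to 5640 in 5 MSC libraries and 0 in MSC 3, against 0, 0 and 1 in the controls. All 5 smooth muscle markers, all 4 endothelial markers and all 8 fibroblast markers examined had reads in every library. The spread between libraries was wider in the MSC group. Among the 6449 genes with a mean of at least 5 RPKM, 94.6% had a larger SD (log2 scale) in the MSC group than in the control group. The groups also differed in number of libraries, lanes and Y-linked reads, whose part in the spread cannot be told apart from that of treatment. Nor can the part of lane 7, or of what the Y-linked reads reflect, in any difference between the groups given below.

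Values are RPKM, reads per kilobase of gene length and scaled to the total of assigned reads, as deposited by the authors and then scaled between libraries by the trimmed mean of M-values (TMM). Fold changes are differences of log2(scaled RPKM + 1), MSC over control, from limma fitted to all 17884 genes, with adjusted p-values (Benjamini-Hochberg) over all of them and 0.05 as the threshold. No gene of the 17884 passed this test (0%, smallest adjusted p 0.315), so none of the 8 proteoglycans did. Without adjustment 719 genes had a p under 0.05, and limma-voom on recovered reads called 0 genes, with 809 such genes.

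Positions are given as the deposited table lists them, for the pig build susScr11 named in the submitters' processing notes. DCN (ENSSSCG00000000915, chromosome 5, 91678608 to 91714235) and LUM (ENSSSCG00000000916, 91748885 to 91757615) lie 34649 bases apart. OGN (ENSSSCG00000034607, chromosome 3, 42116531 to 42135817) and ASPN (ENSSSCG00000008072, 42165553 to 42192813) lie 29735 bases apart with the related gene OMD between them, and both overlap the listed span of CENPP. FMOD (ENSSSCG00000015270, chromosome 9, 64062999 to 64073859) and PRELP (ENSSSCG00000015271, 64190982 to 64207006) lie 117122 bases apart. BGN (ENSSSCG00000012766, chromosome X, 124282224 to 124295448) overlaps SLC6A8, and VCAN (ENSSSCG00000014136, chromosome 2, 91358399 to 91811208) overlaps no other listed gene. Strand use in counting is not given in the sources used here, so reads of OGN, ASPN and BGN could include some of their overlapping partners. The table gives 1 value per gene and library, with no values for single exons or UTRs.

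The proteoglycans were among the most abundant messages of the vein. In RPKM, DCN ranked between 4 and 125 among 20288 protein-coding genes in the 9 libraries, and BGN between 6 and 226. The lowest ranks were those of OGN (4068), LUM (1049) and ASPN (851), all in MSC 5, and of VCAN in MSC 6 (982). The fewest reads behind any value were 917, for OGN in MSC 5, so counting error is small beside the differences between libraries; without molecular identifiers it does not cover other technical error.

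**Figure D1:**
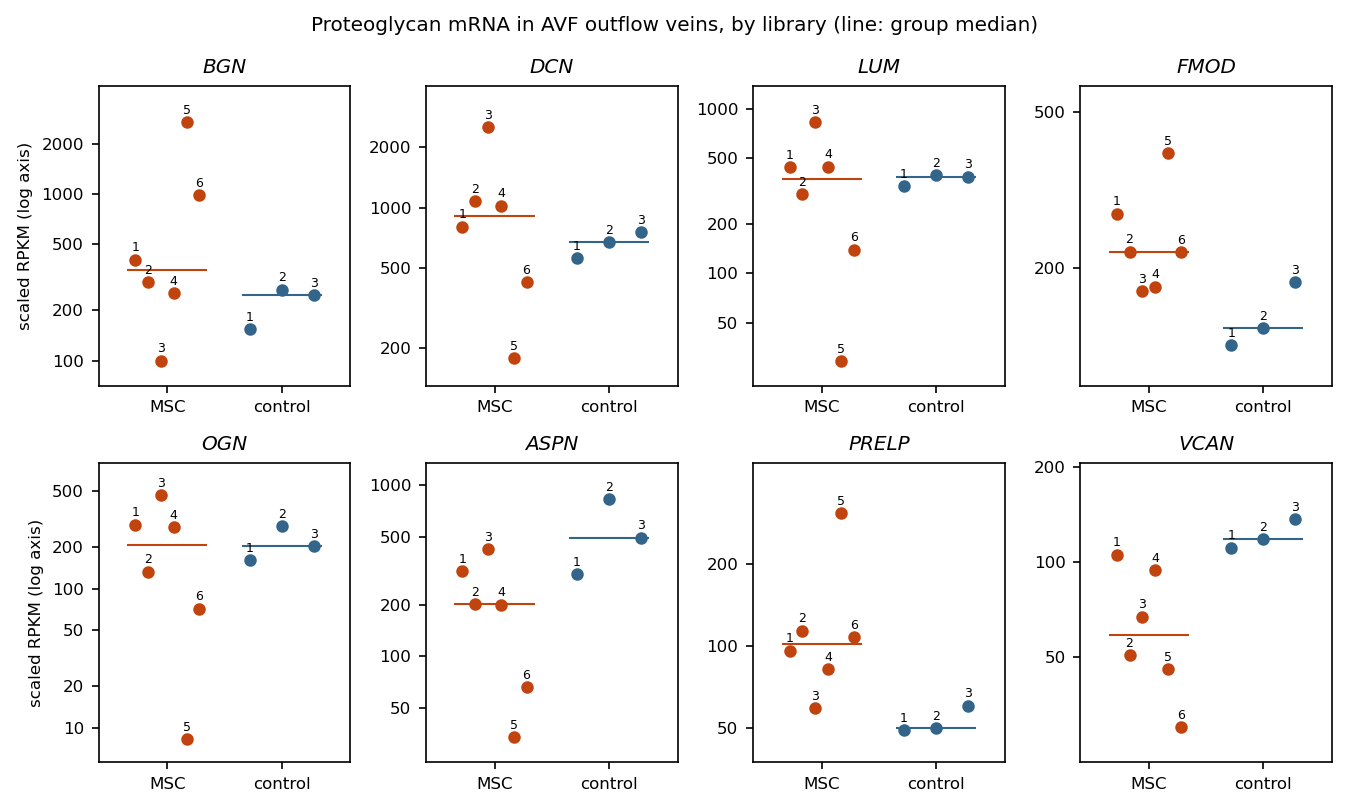
Scaled RPKM (log axis, a separate scale in each panel) of the 8 genes in 6 MSC and 3 control libraries; numbers are replicate numbers and lines are group medians. Every MSC library lies under the lowest control for VCAN, while MSC 5 and MSC 6 lie at the low end for DCN, LUM, OGN and ASPN and at the high end for BGN.

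With this scaling versican was the only one of the 8 whose groups did not overlap, and it was lower in MSC veins. VCAN stood at 106, 50.7, 67.2, 94.7, 45.8 and 30.03 RPKM in MSC 1 to MSC 6, against 111, 118 and 137 RPKM in control 1 to control 3. The gap was narrow, since MSC 1 lay just under control 1. VCAN averaged 65.7 ± 29.4 RPKM in MSC veins (SD, n = 6) and 122 ± 13.4 RPKM in control veins (SD, n = 3). Its log2 fold change was −1.01 ± 0.43 (SE; 95% interval −1.96 to −0.06), with an unadjusted limma p of 0.0397 and an adjusted p of 0.920. An unadjusted p under 0.05 with a lower level was found for 2.11% of all genes, and complete separation with lower MSC values for 1.95%. In these bulk samples, fewer cells that make a message and less message per cell cannot be told apart.

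The separation of VCAN held under 4 of the 5 scalings tried, which were TMM, TMM over all genes, median-of-ratios factors and protein-coding totals. It did not hold in the values as deposited, where MSC 1 (125 RPKM) and MSC 4 (120 RPKM) lay above control 2 (89.5 RPKM). Within lane 5, the difference between MSC 1 and the mean of 2 controls was −0.12 on the log2 scale, and within lane 6 that between 2 MSC libraries and 1 control was −0.78. In lanes 5 and 6 alone the fitted log2 fold change was −0.47.

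Asporin, which competes with decorin for collagen and restrains TGF-beta and bone morphogenetic protein signals, had the largest fitted difference of the 8 with all 9 libraries and no term for lane. With lane as covariate, in lanes 5 and 6 alone, or without MSC 5 and MSC 6, that of DCN was larger. ASPN stood at 314, 202, 423, 201, 33.9 and 66.4 RPKM in MSC 1 to MSC 6, against 303, 826 and 494 RPKM in control 1 to control 3. MSC 1 and MSC 3 overlapped the controls, and the other 4 MSC libraries lay below all of them. ASPN averaged 207 ± 147 RPKM in MSC veins (SD, n = 6) and 541 ± 265 RPKM in control veins (SD, n = 3), a log2 fold change of −1.71 ± 0.80 (SE; 95% interval −3.47 to 0.06; limma adjusted p 0.920). Without MSC 5 and MSC 6 it was −0.88. It was −0.67 within lane 5 and −0.76 within lane 6.

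Biglycan and decorin are close relatives that carry chondroitin or dermatan sulfate chains, and both bind collagen and TGF-beta. BGN ranged from 99.9 RPKM in MSC 3 to 2689 RPKM in MSC 5, with a median of 350 RPKM, against 155, 267 and 247 RPKM in control 1 to control 3. It was above every control in 4 MSC libraries, between them in MSC 4 and below them in MSC 3. Its log2 fold change was 1.04 ± 0.91 (SE; 95% interval −0.98 to 3.06; limma adjusted p 0.920). Without MSC 5 the value was 0.52, without MSC 5 and MSC 6 0.11, and in lanes 5 and 6 alone 0.00083.

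DCN had its highest value in MSC 3 (2514 RPKM) and its lowest in MSC 5 (178 RPKM), with 425 RPKM in MSC 6 and a median of 912 RPKM, against 562, 671 and 755 RPKM in control 1 to control 3. MSC 1 to MSC 4 were above every control, and MSC 5 and MSC 6 were below every control. The fold change was therefore an average of opposite deviations, at 0.18 ± 0.82 on the log2 scale (SE; 95% interval −1.63 to 1.98; limma adjusted p 0.959). It was −0.18 without MSC 3 and 0.89 without MSC 5 and MSC 6, and it turned to −0.011 in the values as deposited and −0.075 with protein-coding totals.

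Lumican and osteoglycin, which regulate the spacing and assembly of collagen fibrils, followed decorin in their order across the extremes. LUM was at 835 RPKM in MSC 3, 139 RPKM in MSC 6 and 29.2 RPKM in MSC 5, with a median of 373 RPKM, against 340, 395 and 387 RPKM in the controls. OGN was at 470 RPKM in MSC 3, 71.5 RPKM in MSC 6 and 8.26 RPKM in MSC 5, with a median of 204 RPKM, against 161, 280 and 201 RPKM in the controls. The medians of the groups were thus close, while the MSC libraries spanned 28.6-fold for LUM and 56.9-fold for OGN, against 1.16-fold and 1.75-fold across the controls. The log2 fold changes were −0.61 for LUM (95% interval −2.64 to 1.42) and −0.78 for OGN (95% interval −3.13 to 1.58). Both changed sign without MSC 5 and MSC 6, to 0.34 for LUM and 0.35 for OGN, and in lanes 5 and 6 alone, to 0.55 and 0.68.

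Fibromodulin and PRELP, class II members that bind collagen, were with TMM scaling the members with mostly higher values in MSC veins and no library far below the controls. PRELP stood at 96.5, 114, 59.2, 82.4, 308 and 108 RPKM in MSC 1 to MSC 6, against 49.3, 50.1 and 60.5 RPKM in control 1 to control 3. Only MSC 3 lay inside the control range, as it did with TMM over all genes and with protein-coding totals. With median-of-ratios factors all 6 MSC libraries lay above the controls, and in the values as deposited 4 of 6 did. PRELP averaged 128 ± 90.4 RPKM in MSC veins (SD, n = 6) and 53.3 ± 6.27 RPKM in control veins (SD, n = 3), a log2 fold change of 1.04 ± 0.48 (SE; 95% interval −0.03 to 2.11; limma adjusted p 0.920). It was 0.68 without MSC 5 and MSC 6, 0.94 within lane 5 and 0.20 within lane 6. FMOD stood at 276, 221, 175, 180, 393 and 220 RPKM in MSC 1 to MSC 6, against 128, 141 and 185 RPKM in the controls, so that MSC 3 and MSC 4 overlapped control 3. Its log2 fold change was 0.65 ± 0.41 (SE; limma adjusted p 0.920), with 1.04 within lane 5 and −0.06 within lane 6. FMOD was above every control in 4 of 6 MSC libraries with TMM and in 5 with median-of-ratios factors. With protein-coding totals 3 of 6 were, and with TMM over all genes 2 of 6. In the values as deposited 4 of 6 were, and MSC 6 (89.9 RPKM) lay below every control.

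**Figure D2:**
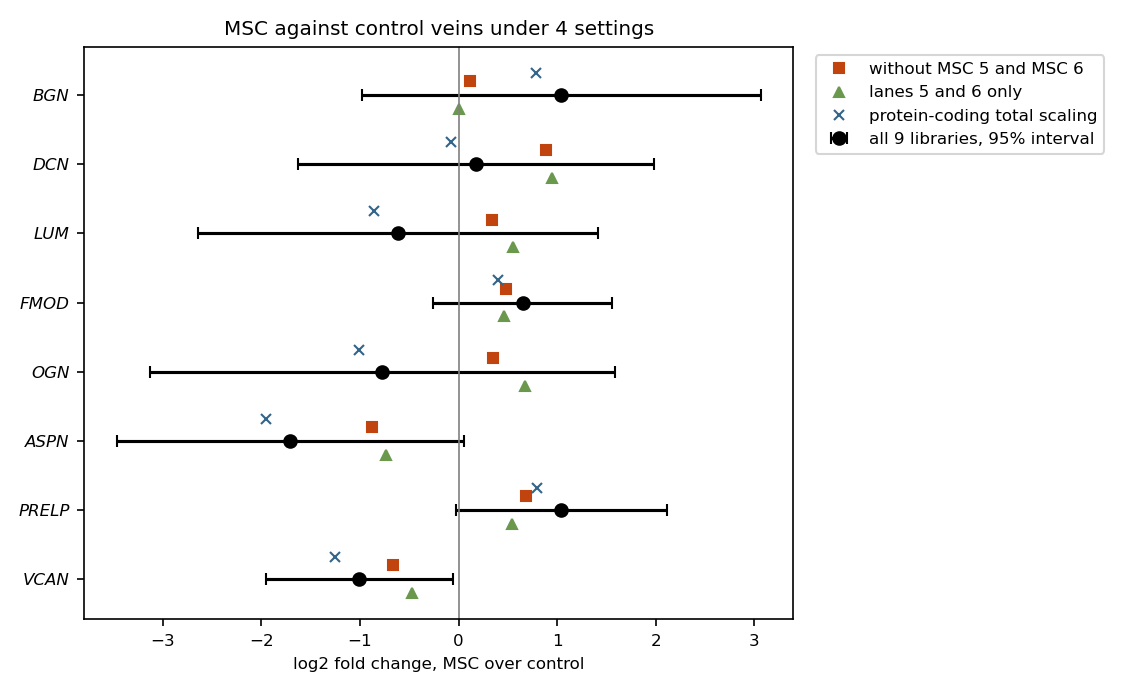
Log2 fold changes, MSC over control, of the 8 genes with all 9 libraries (circles with 95% intervals), without MSC 5 and MSC 6 (squares), in lanes 5 and 6 only (triangles) and with scaling to protein-coding totals (crosses). VCAN and ASPN stay below 0 and FMOD and PRELP above 0 in the 4 settings drawn, while DCN, LUM and OGN change sign.

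Of the 8 genes, 4 had a positive and 4 a negative fold change, with a median of −0.22 against 0.04 over all genes tested (55.7% of them positive). A fold change of at least 1 on the log2 scale, in either direction, was seen in 4 members (ASPN, VCAN, BGN and PRELP). It was reached by 3.83% of all genes and 7.94% of those with a mean of at least 5 RPKM. VCAN (−1.01), BGN (1.04) and PRELP (1.04) only just reached it. No member did without MSC 5 and MSC 6 or in lanes 5 and 6 alone. The largest in size were then 0.89 and 0.95, both for DCN. All 8 had a larger log2 SD in the MSC group, as did 94.6% of the genes with a mean of at least 5 RPKM. The SD of OGN in the MSC group was 2.06, above that of 97.5% of the genes with a mean of at least 5 RPKM, and those of LUM (1.70) and BGN (1.65) were above 94.7% and 93.9%. FMOD was the steadiest member in MSC veins, with an SD of 0.43, above 20.8% of those genes. In the controls the SD of LUM was 0.12, above 24.5% of those genes.

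Across the 9 libraries the most alike pair of members was LUM and OGN, whose log2 values, each centred on its own mean, differed by 0.26 per library on average. FMOD and PRELP differed by 0.31 and DCN and LUM by 0.49, whereas BGN and OGN differed by 2.09, the most of any pair. Chromosomal neighbours were close in 2 cases (FMOD with PRELP, and DCN with LUM), and OGN and ASPN differed by 0.70. These are descriptions over the same 9 libraries, which the genes share.

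The libraries with extreme proteoglycan values also differed in markers of cell types. The summed level of the 5 smooth muscle markers was 5405 RPKM in MSC 5, 5132 RPKM in MSC 6, 1722 RPKM in MSC 1, 747 RPKM in MSC 4, 678 RPKM in MSC 2 and 155 RPKM in MSC 3, against 375 to 486 RPKM in the controls. MYH11, the heavy chain of smooth muscle myosin, was at 1080 RPKM in MSC 5 and 11.4 RPKM in MSC 3. MSC 5, MSC 6 and MSC 1 held the highest and MSC 3 the lowest values of both this sum and BGN. The 8 fibroblast markers, led by COL3A1 and COL1A1, summed to 6303 to 43668 RPKM in MSC libraries and 7529 to 18417 RPKM in controls. The highest sum was in MSC 5, where COL1A1 gave 23119 RPKM and COL3A1 19736 RPKM, and the lowest in MSC 3. PDGFRA went the other way, at 31.6 RPKM in MSC 5 and 91.1 RPKM in MSC 3. DPT was also lower in MSC 5 (18.9 RPKM) than in MSC 3 (44.2 RPKM), and the other fibroblast markers were higher. The 4 macrophage markers summed to 214 RPKM in MSC 3 and 69.4 to 97.4 RPKM in the other MSC libraries. In controls they summed to 82.1 to 113 RPKM. Among them CSF1R went the other way, at 18.5 RPKM in MSC 3, 47.3 RPKM in MSC 5 and 43.6 RPKM in MSC 6. The 6 cartilage markers summed to 43.5 RPKM in MSC 5 and 1.07 to 13.0 RPKM in the other MSC libraries, against 10.7 to 23.6 RPKM in controls, and COL2A1, the collagen that defines cartilage, was at or under 0.25 RPKM throughout. The part of these differences in the proteoglycan values was not tested. BGN is X-linked, and MSC 3, the MSC library with no reads on EIF1AY and KDM5D, held the lowest BGN value, below the 3 controls with 0, 0 and 1 such reads.

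The balance between members was read within each library, where scaling has almost no effect. The question is whether treatment shifts the vein from one proteoglycan to another. There were 0.504, 0.276, 0.0397, 0.247, 15.1 and 2.30 BGN RPKM for each DCN RPKM in MSC 1 to MSC 6, against 0.276, 0.398 and 0.327 in control 1 to control 3. DCN thus exceeded BGN in every control and in 4 MSC libraries, and BGN exceeded DCN in MSC 5 and MSC 6. The mean log2 ratio was −0.73 ± 2.95 in MSC veins (SD, n = 6) and −1.60 ± 0.26 in control veins (SD, n = 3), a difference of 0.87 with a two-sided exact permutation p of 0.643 over 84 splits (0.643 adjusted over 2 ratios). Without MSC 5 the difference was −0.06, and without MSC 5 and MSC 6 it was −0.78.

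VCAN relative to DCN was lower than in any control in 5 of 6 MSC libraries. The ratio was 0.132, 0.0473, 0.0267, 0.0926, 0.257 and 0.0706 in MSC 1 to MSC 6, against 0.198, 0.177 and 0.182 in control 1 to control 3. MSC 5, where DCN was at its lowest, was the exception. The mean log2 ratio was −3.60 ± 1.14 in MSC veins (SD, n = 6) and −2.42 ± 0.09 in control veins (SD, n = 3). The difference of −1.18 had a two-sided exact permutation p of 0.131 (0.262 adjusted over 2 ratios), where 0.0119 is the smallest p that 84 splits allow. Leaving out 1 library at a time gave −1.52 to −0.86, and lanes 5 and 6 alone gave −1.42.

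**Figure D3:**
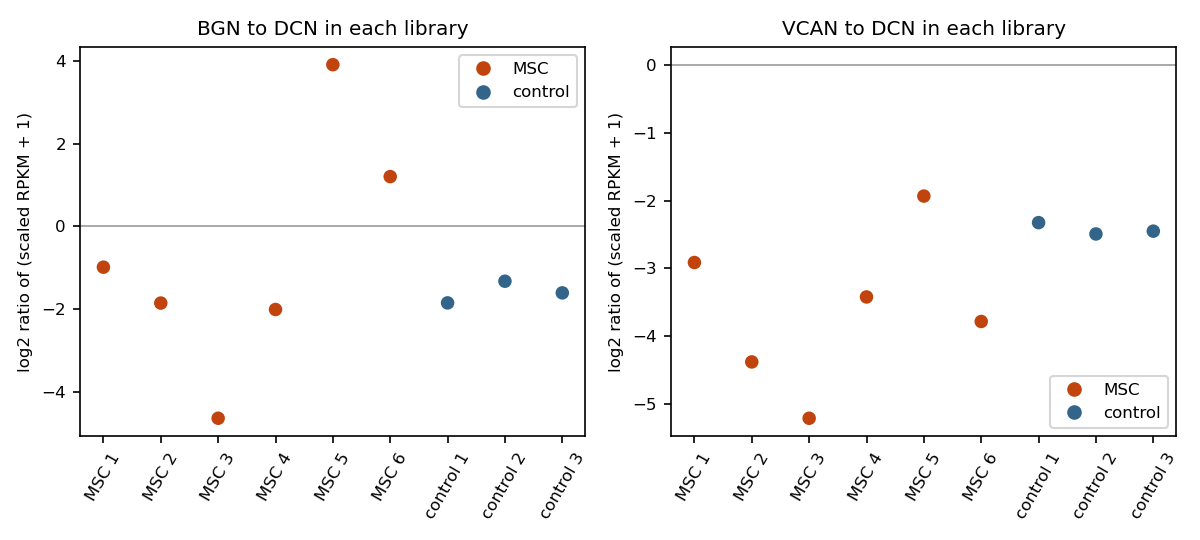
Log2 ratio of BGN to DCN (left) and VCAN to DCN (right) in each library, from scaled RPKM with 1 added; the line marks equal levels. BGN exceeds DCN in MSC 5 and MSC 6 alone, and the controls lie close together in both ratios.

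The 8 genes together summed to 2728, 2392, 4644, 2553, 3685 and 2041 RPKM in MSC 1 to MSC 6, against 1809, 2749 and 2466 RPKM in control 1 to control 3, so the groups overlapped in their total. Of this sum, ASPN made up 0.919% to 11.5% in MSC libraries and 16.8% to 30.1% in controls. VCAN made up 1.24% to 3.87% in MSC libraries and 4.31% to 6.15% in controls. ASPN and VCAN were thus the 2 of 8 genes whose shares did not overlap between the groups, both lower in MSC veins, and these shares do not depend on the scaling between libraries. A share also moves when another member moves, as BGN did in MSC 5 and MSC 6 and DCN in MSC 3, where it made up 54.1% of the sum. In level, ASPN overlapped the controls in MSC 1 and MSC 3. The shares were taken among these 8 genes alone, and no rate over all genes was computed to set beside this count. Whether the count is unusual therefore cannot be judged. The sum averaged 3007 RPKM in MSC libraries and 2341 RPKM in controls, and a larger sum lowers the share of a gene whose level is unchanged. DCN led the sum in 4 MSC libraries and in 2 controls, BGN in MSC 5 (73.0%) and MSC 6 (48.0%), and ASPN in control 2 (30.1%).

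**Figure D4:**
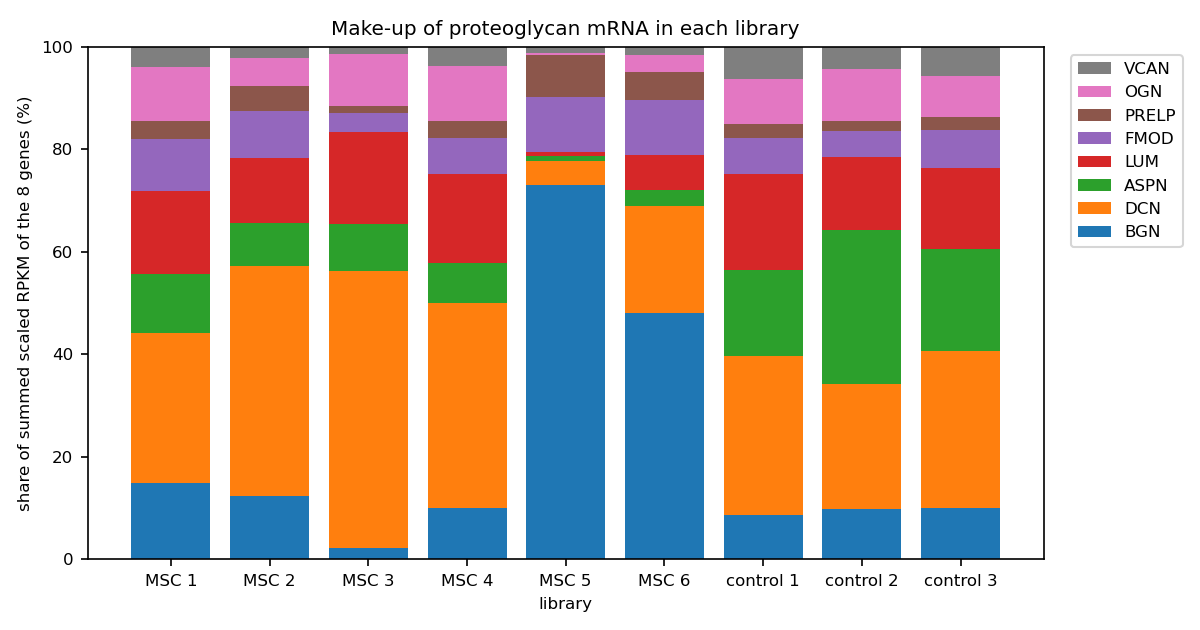
Share of each gene in the summed scaled RPKM of the 8 genes, by library. BGN fills 73.0% of MSC 5 and 48.0% of MSC 6, and the green ASPN and grey VCAN bands are wider in each of the 3 controls than in any MSC library.

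Other genes that make, bind or degrade proteoglycans were read from 8 lists with 119 entries, of which 110 were in the table and 101 passed the filter. Of the 101, 57 had a positive and 44 a negative fold change and 0 passed the test over all genes, against 0% of all genes. An unadjusted p under 0.05 was reached by 7 (4 higher, 3 lower), beside 4.02% of all genes. The groups did not overlap in 4 of the 101. ESM1, HYAL3 and COL14A1 were higher in every MSC library, as were 358 of the 17884 genes, and DSEL was lower, as were 1.95%.

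Among other small leucine-rich proteoglycans, 5 of 7 measured were higher and 2 lower, with a median of 0.29. OMD, the keratan sulfate proteoglycan osteomodulin that lies between OGN and ASPN, stood at 30.5, 15.2, 79.2, 38.9, 1.77 and 9.96 RPKM in MSC 1 to MSC 6, against 9.70, 9.61 and 8.83 RPKM in the controls. MSC 5 lay below the controls and the other 5 MSC libraries above them, with a log2 fold change of 0.89 (limma adjusted p 0.920). It was 0.47 without MSC 3 and 1.44 without MSC 5. KERA, the keratan sulfate proteoglycan keratocan, averaged 5.97 ± 7.04 RPKM in MSC veins (SD, n = 6) and 1.21 ± 1.19 RPKM in control veins (SD, n = 3).

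Of the other matrix and secreted proteoglycans and link proteins, 9 of 13 were higher and 4 lower, with a median of 0.36. ESM1, an endothelial dermatan sulfate proteoglycan also called endocan, averaged 2.84 ± 1.91 RPKM in MSC veins (SD, n = 6) and 0.284 ± 0.307 RPKM in control veins (SD, n = 3). Its log2 fold change was 1.45 ± 0.42 (SE; limma unadjusted p 0.00585, adjusted p 0.657). SPOCK1, a secreted proteoglycan also called testican, had a log2 fold change of 1.34, with MSC 3 (0.945 RPKM) below every control. ACAN, the large cartilage proteoglycan aggrecan and a relative of versican, was at 28.3 RPKM in MSC 5 and 0.108 to 7.55 RPKM in the other MSC libraries, against 7.70 to 19.4 RPKM in controls, a log2 fold change of −1.81 (limma adjusted p 0.920) or −2.39 without MSC 5. HAPLN1, which links versican and aggrecan to hyaluronan, was at 0 to 0.444 RPKM in MSC veins and at 0.0205 to 1.44 RPKM in controls.

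Cell surface proteoglycans had 6 of 13 higher and 7 lower, with a median of −0.11. GPC6, a glypican anchored in the membrane by a lipid, averaged 27.3 ± 5.20 RPKM in MSC veins (SD, n = 6) and 49.97 ± 16.8 RPKM in control veins (SD, n = 3), with control 1 at 30.6 RPKM. SDC2, a syndecan that carries heparan sulfate, had a log2 fold change of −0.76, with MSC 1 at 48.3 RPKM above every control. TGFBR3, the TGF-beta co-receptor betaglycan, and CD44, a hyaluronan receptor, were at 0.37 and 0.30, neither past the test. TGFBR3 was at 0.23 without MSC 2 and 0.24 without control 2, and CD44 at 0.085 without control 2 and 0.51 without control 1.

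Enzymes that build chondroitin and dermatan sulfate had 14 of 26 higher and 12 lower, with a median of 0.08. DSEL, an epimerase that turns chondroitin into dermatan sulfate, averaged 9.80 ± 3.42 RPKM in MSC veins (SD, n = 6) and 16.7 ± 1.59 RPKM in control veins (SD, n = 3), a log2 fold change of −0.79 ± 0.34 (SE; limma adjusted p 0.920). CSGALNACT2, which starts chondroitin chains, was at −0.61 (−0.37 without MSC 5), and UST, which sulfates uronic acid in these chains, at 0.44. Enzymes of keratan sulfate had 2 of 5 higher and 3 lower, with a median of −0.06.

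Of the hyaluronan genes, 7 of 9 were higher and 2 lower, with a median of 0.26. CEMIP, which promotes hyaluronan breakdown, averaged 1.10 ± 0.757 RPKM in MSC veins (SD, n = 6) and 2.97 ± 1.25 RPKM in control veins (SD, n = 3), a log2 fold change of −0.94 (limma adjusted p 0.919). HYAL3, a hyaluronidase relative whose span overlaps HYAL1 and IFRD2, was at 0.58. HAS2, a hyaluronan synthase, was not found under its symbol and so was not analysed. The proteases that process or degrade proteoglycans had 5 of 11 higher and 6 lower, with a median of −0.06. ADAMTS1 and ADAMTS5, which cleave versican and aggrecan, were at −0.06 and 0.59, and ADAMTS5, at 23.9 RPKM in MSC 3, was at 0.28 without that library.

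The collagen and receptor partners had 9 of 17 higher and 8 lower, with a median of 0.09. COL12A1, a collagen attached to fibril surfaces, averaged 159 ± 61.0 RPKM in MSC veins (SD, n = 6) and 319 ± 108 RPKM in control veins (SD, n = 3), a log2 fold change of −1.01 (limma adjusted p 0.920). COL14A1, of the same family, averaged 412 ± 111 RPKM in MSC veins (SD, n = 6) and 267 ± 12.7 RPKM in control veins (SD, n = 3), a log2 fold change of 0.58. TGFB2 and TGFB3, ligands held by decorin and biglycan, were at 0.63 and 0.85, and TGFB2 was above every control in 5 of 6 MSC libraries. COL1A1 and COL3A1, the main fibril collagens, were at 0.50 and −0.05, and COL1A1 was at −0.08 without MSC 5, which held 23119 RPKM, and at −0.11 without control 1.

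**Figure D5:**
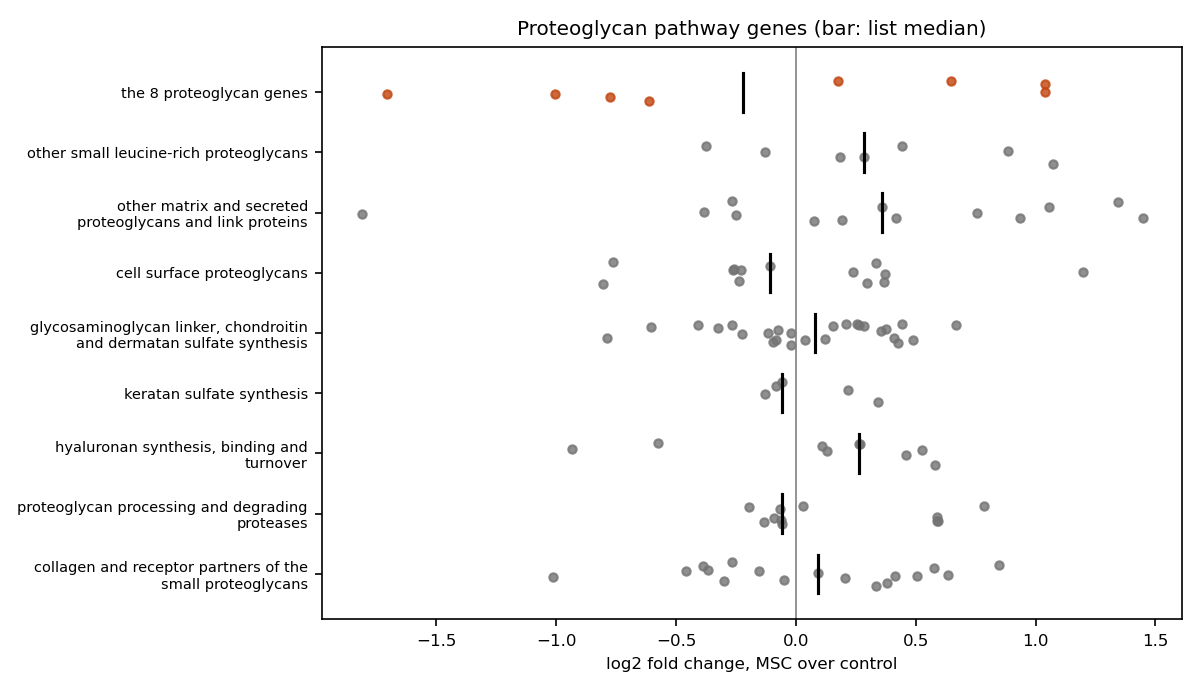
Log2 fold changes, MSC over control, of the 8 proteoglycan genes (top row) and of the measured genes of 8 related lists; each point is a gene and each bar the median of its row. Medians of the lists lie between −0.11 and 0.36, and no gene shown passed the test over all genes.

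The genes closest to a member in their profile were sought among 5844 other named genes with a mean of at least 5 RPKM, by the mean absolute difference of centred log2 values over the 9 libraries. BGN was followed most closely by TGFB1I1 (0.12), a focal adhesion protein of smooth muscle, ACTN1 (0.13), a cross-linker of actin, and DENND2B (0.19). TGFB1I1 stood at 81.4 RPKM in MSC 5 and 2.55 RPKM in MSC 3, against 4.68 to 9.27 RPKM in controls. DCN was nearest to PROS1 (0.23), the anticoagulant protein S, MRC1 (0.24), the mannose receptor of macrophages and some endothelial cells, and SAMHD1 (0.24), a nucleotide hydrolase, of which MRC1 and SAMHD1 overlap other listed genes. VCAN was nearest to TMEM65 (0.23), CYP7B1 (0.24), a hydroxylase of oxysterols, and ARHGAP28 (0.25).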

How the data were processed

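RNA was measured in 9 outflow vein libraries (6 MSC, 3 control), each made with a TruSeq V2 kit on 0.5 µg of RNA according to the labels. The authors deposited 1 table of RPKM values, 1 column per library, per the file headers. The aligner, counter and annotation version are not given in the sources used here, and the submitters' processing notes name the builds susScr11 and mm10. Of 13755 symbols shared with a RefSeq table of the pig assembly, 99.9% overlapped at the listed position.

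RPKM multiplied by gene length plus 1 gave whole multiples of 1 step per library (100% within 0.01 of a whole number), and so the reads. A gene was kept if 3 or more libraries reached 10 reads, rescaled for library size, and its reads totalled 15 or more. RPKM was divided by TMM factors (trims 0.3 and 0.05) from the kept genes. This choice of genes was made after values were seen, and TMM over all genes is an alternative. limma 3.58.1 in R 4.3.3 was fitted to log2(scaled RPKM + 1) with a variance trend, no covariate and 1 spread for both groups; fold changes of low genes are understated. The fit was tested on simulated reads. For a length of 2 kilobases, 1 read equalled 0.0105 to 0.0295 RPKM. Ratios were tested with SciPy 1.17.1.

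The members, lists and markers were chosen with earlier results of these data known. Named list genes were the 3 with the smallest p in each list among those with a mean of at least 1 RPKM, plus COL1A1, COL3A1, HAS2, HAPLN1, ADAMTS1, ADAMTS5 and CD44. After the values were seen they were narrowed to an unadjusted p under 0.25; OMD was added for its position and COL14A1 for its non-overlapping groups. Of 14012 genes without a symbol, 785 took one from a gene name table.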

Additional observations from a re-analysis of the deposited data

Results flagged for a closer look

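Of 50 values tested in the 6 MSC libraries (8 gene levels, their sum, 8 shares, 2 ratios, 22 list genes and 9 summed marker lists), 7 had a single library standing far apart, and about 2.5 would by chance. None was a level, share or ratio of the 8 proteoglycans. Gene levels were tested on the log2 scale and marker sums in RPKM, where high values stand out more. Flags of genes and of sums can therefore not be compared, and the 2.5 may not hold for the sums. The controls were too few to test. ADAMTS5 was at 4.64 on the log2 scale in MSC 3, where the next highest MSC library was at 3.09. CSGALNACT2 was at 2.24 in MSC 5, where the next lowest was at 3.35. The summed fibroblast markers were at 43668 RPKM in MSC 5, mostly from COL1A1 and COL3A1, and at most 16757 RPKM in the others. The summed cartilage markers were at 43.5 RPKM in MSC 5 and at most 13.0 RPKM in the others. The summed macrophage markers were at 214 RPKM in MSC 3 and at most 97.4 RPKM in the others, though CSF1R was higher in MSC 5 and MSC 6 than in MSC 3. The summed B and plasma cell markers were at 228 RPKM in MSC 6 and at most 55.9 RPKM in the others. CD79A gave 227 RPKM of the sum in MSC 6. MS4A1, CD79B and JCHAIN were at 0.070, 0.24 and 0.99 RPKM there, each below every control. The summed adipocyte markers were at 60.01 RPKM in MSC 2 and at most 9.28 RPKM in the others.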

How the results depend on the processing

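The 8 fold changes were refitted under 25 alternatives each (other scalings, pseudocounts, filters, limma-voom, a robust prior, lane, subsets of libraries), of which TMM over all genes and protein-coding scaling without MSC 5 and MSC 6 were added after seeing the data. None passed the test in any of them (lowest adjusted p 0.410, for PRELP). VCAN (−1.25 to −0.45), ASPN (−2.06 to −0.72), PRELP (0.54 to 1.22) and FMOD (0.40 to 0.80) kept their sign throughout, as did BGN, down to 0.00083. DCN turned to −0.011 as deposited, −0.075 with protein-coding scaling and −0.18 without MSC 3 (−0.18 to 0.59 leaving out 1 library). The median over all genes was −0.067 with protein-coding scaling (41.3% of genes positive) and 0.039 with TMM (55.7%). Each member moved down by more than this median. BGN, for example, went from 1.04 with TMM to 0.79 with protein-coding scaling. LUM and OGN turned to 0.46 and 0.64 with lane as covariate, 0.37 and 0.33 with the replicate block, 0.55 and 0.68 in lanes 5 and 6, 0.34 and 0.35 without MSC 5 and MSC 6, and 0.33 and 0.34 with protein-coding scaling as well. The BGN to DCN difference turned to −0.95 in lanes 5 and 6, −0.78 without MSC 5 and MSC 6 and −0.90 with the replicate block, and ran from −0.063 to 1.65 leaving out 1 library; the VCAN to DCN difference kept its sign in 14 alternatives. The count of genes called was 7 in lanes 5 and 6 and 0 to 22 leaving out 1 library (22 without control 1, 3 without MSC 3, 1 without MSC 2), and 0 in the other alternatives. Of the list genes, COL1A1 turned to −0.52 with lane, −0.47 with the replicate block, −0.54 in lanes 5 and 6, −0.51 without MSC 5 and MSC 6 and −0.52 with protein-coding scaling as well, and ran from −0.11 to 1.01 leaving out 1 library. ADAMTS1 turned to 0.13 with the replicate block, 0.11 without control 2 and MSC 1, 0.060 without MSC 5 and MSC 6 and 0.053 with protein-coding scaling as well (−0.27 to 0.11 leaving out 1 library). COL3A1 turned to 0.24 without control 2 and MSC 1 (−0.31 to 0.24 leaving out 1 library), and HAPLN1 ran from −0.46 to 0.16. The causes were not tested. Same-numbered libraries gave no clear sign of deviating together (correlations across genes of 0.22, −0.52 and −0.14). So few pairs cannot exclude a pairing by replicate number. In lane 7 no within-lane value can be had. The fewest reads behind any of the 8 values were 917.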

Other observations

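Adipocyte genes differed between libraries without following treatment. ADIPOQ, the adipocyte hormone adiponectin, stood at 27.3 RPKM in MSC 2 and at 0.0452 to 0.734 RPKM in the other MSC libraries, against 8.10 RPKM in control 1 and 0.201 and 1.41 RPKM in control 2 and control 3. HBB, the beta globin of red blood cells, ran from 8.52 RPKM in MSC 2 to 533 RPKM in MSC 6, against 4.55 to 37.1 RPKM in controls. SOX9, a transcription factor of cartilage, was at 0.0189 to 1.74 RPKM in MSC libraries and 1.11 to 3.22 RPKM in controls, and COMP, a matrix protein of cartilage and tendon, at 0.108 to 12.5 RPKM in MSC libraries and 0.0939 to 0.993 RPKM in controls. The 4 endothelial markers summed to 32.2 to 102 RPKM in MSC libraries and 21.2 to 62.9 RPKM in controls, and the 4 T and NK cell markers to 2.99 to 26.4 RPKM in MSC libraries and 10.1 to 17.6 RPKM in controls.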
